A study of Rattus norvegicus with 10 samples.

Results

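The antioxidant defence genes described here are Hmox1, Nqo1, Gclc, Gclm, Slc7a11, Txnrd1, Srxn1, Sod2, Cat and Mt1, measured in whole rat retina on postnatal day 3. Members were found by gene symbol: a probe set was taken where the platform annotation gave it a member as its only symbol, and the brightest one on average stood for the gene. All 10 genes were found, on 11 probe sets, among 14324 genes with a singly named probe set. Only Mt1 had 2 probe sets.

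The study compared F344 rats, which its design names as resistant to oxygen-induced retinopathy, with SD rats, named as susceptible. Pups either breathed room air or were kept from within 12 h of birth in cyclic hyperoxia, in which 24 h periods of 80% and 21% oxygen alternated. Both strains are albino. The 4 groups were F344 in cyclic hyperoxia (3 arrays), F344 in room air (2), SD in cyclic hyperoxia (2) and SD in room air (3). Each array held a pool of RNA from 3 rats of 2 litters, and pools of one group came from different rats. No genetic modification, drug or other agent is named for any group. The retinal vessels of the rat are still growing at this age, and the pools hold RNA of all retinal cell types together.

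Cells meet oxidants with a set of inducible genes, many of which are driven by the transcription factor NRF2, encoded by Nfe2l2. NRF2 is held at a low level by KEAP1 until oxidants or electrophiles modify KEAP1, and it then binds antioxidant response elements in the promoters of its targets. Metallothionein genes are switched on mainly through metal response elements bound by the zinc sensor MTF1. In the newborn rat the outer retina is supplied by the choroid and the inner retina by vessels that are only partly formed. Raised oxygen can halt the growth of those vessels, which was not examined here in either strain.

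The values were log2 expression estimates from Affymetrix whole-transcript arrays, deposited to 1 decimal, and ranged from 3.1 to 14 over all probe sets. Array medians lay between 5.9 and 6.0. With only 1 decimal, a standard deviation of 0 means equality after rounding. All 12 measured retinal identity genes (of 16 listed) lay above the highest array median, as a check of the tissue. Hmox1, Nqo1 and Srxn1 had means below the lowest array median and are the dim members, and how far they exceeded background was not analysed here. The arrays numbered 3, one in F344 hyperoxia and one in SD room air, stood apart. From their number they are taken to be the arrays that the submitters included later, once principal components had been computed on the initial set. In a limma fit with a term for these arrays, that term passed an adjusted p of 0.05 for 16.1% of genes, with 1058 genes higher (7.39%) and 1251 lower (8.73%) on them, and an unadjusted p of 0.05 for 29.4%. Among the members it passed for Mt1, which was higher, and Txnrd1, which was lower. Values that moved by over 1.5 times without those arrays are given with and without them where the difference was larger than its standard error, and whether a shared preparation or scan set them apart was not tested. In pooled whole tissue, fewer cells of a type and less RNA per cell cannot be told apart.

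No member passed an adjusted p of 0.05 (limma, Benjamini-Hochberg over all 27342 probe sets) in any of 6 comparisons. The comparisons were hyperoxia against room air in each strain, the strains in each exposure, the difference of the hyperoxia effects, and their average. The share of all genes that passed was small as well: 0.0489% for hyperoxia in SD, 0.00698% for hyperoxia in F344, 0.552% for the strains in room air, 0.475% for the strains in hyperoxia, 0% for the difference of the effects and 0.0628% for their average. At an unadjusted p under 0.05, 3 of 10 members passed for hyperoxia in SD (4.68% of all genes), 3 in F344 (4.91%), 3 between strains in room air (11.4%), 1 between strains in hyperoxia (6.71%), 2 for the difference of the effects (6.98%) and 3 for their average (3.62%). The members, and the lists used below, were chosen with earlier results of these data known. Their counts beside the shares of all genes are therefore a description only. The median hyperoxia difference over the members was -0.03 in SD and -0.01 in F344, against medians over all genes that rounded to 0. In SD 4 members lay above 0 and 6 below, and in F344 5 lay above and 5 below. The differences of largest size were those of Mt1, Hmox1 and Slc7a11 in SD and of Slc7a11 in F344.

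**Figure D1:**
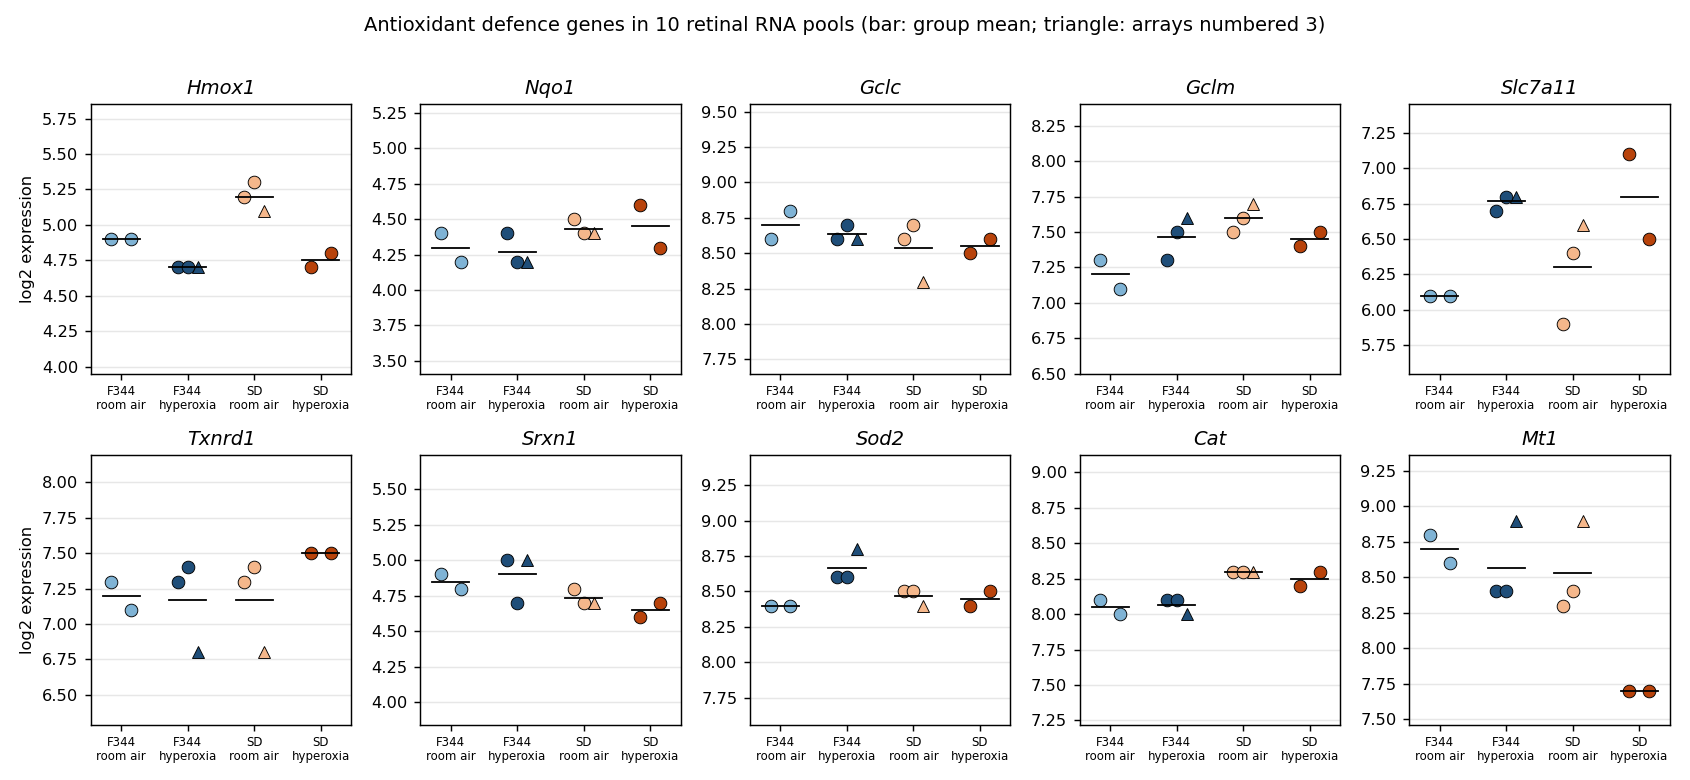
Log2 expression of the 10 antioxidant genes on each array, by strain and exposure; points are pools, horizontal bars are group means, and triangles are the arrays numbered 3. Both SD hyperoxia pools lay at 7.7 for Mt1, under every other pool, while Cat and Nqo1 ranged over 0.3 and 0.4 across all arrays.

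Mt1 encodes metallothionein 1, a small cysteine-rich protein that binds zinc and copper and scavenges oxidants. Its values were 7.7 and 7.7 in SD hyperoxia and 8.3, 8.4 and 8.9 in SD room air. They were 8.4, 8.4 and 8.9 in F344 hyperoxia and 8.8 and 8.6 in F344 room air. Both SD hyperoxia pools were the lowest of the 10 arrays, clear of the next at 8.3, and the other 3 groups overlapped one another. For F344 room air that overlap came only from the arrays numbered 3, which read 8.9 each. In SD, Mt1 was lower in hyperoxia by a log2 difference of -0.83 (SE 0.188, 95% CI -1.24 to -0.42), a 1.78-fold difference, with an adjusted p of 0.441 by limma. In F344 the difference was -0.13 (SE 0.188, 95% CI -0.54 to 0.28). The difference between these effects was -0.70 (SE 0.266, unadjusted p = 0.022, adjusted p = 0.651).

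Between the strains in hyperoxia, Mt1 was lower in SD by -0.87 (SE 0.188, adjusted p = 0.0913), a 1.82-fold difference, and in room air the strains differed by -0.17 (SE 0.188). The room air difference was wider without both arrays numbered 3, at -0.35 (SE 0.0973, adjusted p = 0.201 by limma). With a term for those arrays it was -0.34 (adjusted p = 0.139). The second Mt1 probe set read 0.5 to 0.7 lower on every array and gave -0.98 for the strains in hyperoxia, with an adjusted p of 0.0845. It gave -0.95 for hyperoxia in SD, -0.02 in F344 and -0.93 for the difference of the effects. Whether the 2 probe sets are separate readings of Mt1 was not tested. Mt1 was higher on both arrays numbered 3, by 0.50 over the other F344 hyperoxia pools and by 0.55 over the other SD room air pools. With a term for those arrays, the estimate was 0.53 (SE 0.0909, adjusted p = 0.00248), and the standard errors for Mt1 were smaller. In that fit Mt1 passed in SD, at -0.66 (SE 0.101, adjusted p = 0.0271), and between strains in hyperoxia, at -0.69 (adjusted p = 0.00365). It did not pass in F344, at -0.31 (adjusted p = 0.659), nor for the difference of the effects, at -0.35 (adjusted p = 0.731). When both arrays numbered 3 were left out, the hyperoxia difference was -0.65 in SD (SE 0.0973, adjusted p = 0.237) and -0.30 in F344 (SE 0.0973, adjusted p = 0.8445). In the same fit the difference between strains in hyperoxia was -0.70 (adjusted p = 0.0324), and the difference of the effects was -0.35 (adjusted p = 0.714). Leaving out 1 array at a time gave an SD difference between -0.95 and -0.65, and over all 21 alternatives the adjusted p ran from 0.0271 to 0.969 in SD and from 0.00365 to 0.783 between strains in hyperoxia. Mt1 stayed lower in SD hyperoxia in each of these fits. Its side of the threshold changed with the handling of the arrays numbered 3, and between strains in hyperoxia also with arrays centred on their median (adjusted p = 0.0481) and with array weights (adjusted p = 0.0111).

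The Mt1 promoter is shown because Mt1 was the member with the widest difference between groups and carries binding-site motifs for both NRF2 and MTF1. The window is chr19:10832926-10833225 of GRCr8 on the minus strand, from RefSeq, running from 250 bases before the gene start to 50 bases after it. Capitals mark matches to the antioxidant response element TGACNNNGC and to the metal response element, TGCACNC or TGCGCNC, searched on both strands.
Mt1: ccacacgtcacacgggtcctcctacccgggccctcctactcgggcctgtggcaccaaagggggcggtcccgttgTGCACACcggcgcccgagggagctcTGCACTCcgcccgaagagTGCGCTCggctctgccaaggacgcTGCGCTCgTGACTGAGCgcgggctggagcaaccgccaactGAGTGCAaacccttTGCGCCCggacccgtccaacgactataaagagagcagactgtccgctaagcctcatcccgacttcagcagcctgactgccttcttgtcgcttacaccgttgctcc
There were 6 metal response element matches, lying between 176 and 49 bases before the start, and 1 antioxidant response element match, TGACTGAGC, from 101 to 93 bases before it. None of these matches overlapped. Over 33469 RefSeq promoters of the same length, 24.2% held a metal response element match, 12.1% an antioxidant response element match, and 13 (0.0388%) held 6 or more metal response element matches. In the list of metal, heme and iron genes, 6 of 12 lay above 0 and 6 below for hyperoxia in SD. Its other metallothioneins, named after their values were seen, did not share the size of the Mt1 difference in SD. There Mt2A differed by 0.07 (SE 0.142) and Mt3 by -0.05 (SE 0.122). In F344 the differences were -0.15 for Mt2A and -0.07 for Mt3, beside -0.13 for Mt1. The zinc exporter gene Slc30a1 differed by -0.15 in SD (SE 0.127) and -0.27 in F344, and by -0.21 averaged over the strains (SE 0.0898, unadjusted p = 0.039, adjusted p = 0.990). A motif match describes the sequence only.

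Hmox1 encodes heme oxygenase 1, which breaks heme down to biliverdin, carbon monoxide and iron and is a widely used marker of oxidant stress. Its values were 4.7 and 4.8 in SD hyperoxia and 5.2, 5.3 and 5.1 in SD room air. In F344 they were 4.7, 4.7 and 4.7 in hyperoxia and 4.9 and 4.9 in room air. Hyperoxia pools lay below room air pools in each strain with no overlap, although all values lay under the array medians. The difference was -0.45 in SD (SE 0.101, 95% CI -0.67 to -0.23), a 1.37-fold difference with an adjusted p of 0.439 by limma, and -0.20 in F344 (SE 0.101, 95% CI -0.42 to 0.02, unadjusted p = 0.071). Averaged over the strains it was -0.33 (SE 0.0714, adjusted p = 0.367). Hmox1 was 0.30 higher in SD than in F344 in room air (SE 0.101, adjusted p = 0.283) and 0.05 higher in hyperoxia (SE 0.101), where the groups overlapped. The difference between the strains' hyperoxia effects was -0.25 (SE 0.143, adjusted p = 0.665). Whether oxidant stress had a part in these Hmox1 values was not tested. Of 8 measured endothelial markers (of 12 listed), the mean lay between 5.05 and 5.20 in F344 hyperoxia against 5.26 to 5.54 in room air, and between 4.99 and 5.13 in SD hyperoxia against 5.28 to 5.75. The mean of 13 measured microglia and macrophage markers (of 14 listed) lay between 5.38 and 5.58 on all arrays. Most of these markers were dim: 1 of the 8 endothelial and 3 of the 13 microglia and macrophage markers averaged above the highest array median. The part of these cells in the Hmox1 values was not tested. Hmox2, the constitutive heme oxygenase, differed by 0.30 between strains in hyperoxia (SE 0.124, adjusted p = 0.689).

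Slc7a11 encodes the transporter subunit of system xc-, which imports cystine for glutathione synthesis. Its values were 6.7, 6.8 and 6.8 in F344 hyperoxia and 6.1 and 6.1 in F344 room air. In SD they were 7.1 and 6.5 in hyperoxia and 5.9, 6.4 and 6.6 in room air. The F344 groups stood apart, and in SD the groups overlapped because one hyperoxia pool was below the highest room air pool. Slc7a11 was higher in hyperoxia by 0.67 in F344 (SE 0.198, 95% CI 0.24 to 1.10, adjusted p = 0.921), a 1.59-fold difference, and by 0.50 in SD (SE 0.198, 95% CI 0.07 to 0.93, adjusted p = 0.815), a 1.41-fold difference. Averaged over both strains it was 0.58 (SE 0.140, unadjusted p = 0.0012, adjusted p = 0.523). With SD hyperoxia replicate 1 left out, the SD difference was 0.20, and with replicate 2 left out it was 0.80, so the size in SD varied with each pool. The difference between the strains' effects was -0.17 (SE 0.279, 95% CI -0.77 to 0.44), an interval that leaves room for a difference either way.

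Across the 10 arrays, the genes with the pattern most like Slc7a11, out of 7072 genes that ranged over at least 0.5, were Tyr (Pearson's r = 0.885), Trpm1 (0.879) and Prph2 (0.871). As the highest of 7072 correlations over 10 arrays, these values are a description only. Tyr, which encodes tyrosinase and marks pigment cells, read 5.9, 5.8 and 6.6 in F344 hyperoxia and 5.0 and 5.0 in F344 room air. In SD it read 6.4 and 5.0 in hyperoxia and 4.7, 5.4 and 6.1 in room air. Tyr is also among the 9 measured pigment epithelium markers (of 11 listed), so their mean is not separate from it. That mean lay between 6.36 and 6.79 in F344 hyperoxia against 6.2 and 6.23 in room air. In SD it lay at 6.68 and 6.31 in hyperoxia and at 6.12, 6.32 and 6.69 in room air, with the SD hyperoxia pool highest for Slc7a11 also the higher of its pair in the marker mean. The markers did not move alike. In F344, group means differed most for Tyr (6.1 in hyperoxia, 5.0 in room air) and Tyrp1 (6.87 and 6.05). Ttr (9.23 and 8.85), Mlana (5.4 and 5.1), Rgr (7.27 and 7.05) and Lrat (4.53 and 4.45) also lay higher in hyperoxia. Rlbp1 (10.4 and 10.55) and Best1 (4.4 and 4.5) lay lower in hyperoxia. Rlbp1 was also listed as a marker of Müller glia and progenitors. Not all of these markers were bright: Rpe65, the retinoid isomerase that defines the layer, had group means of 4.43 in F344 hyperoxia, 4.4 in F344 room air, 4.30 in SD hyperoxia and 4.33 in SD room air, all under the array medians. Best1, Lrat and Mlana lay under them in every group too, and Tyr in all but F344 hyperoxia, where its mean was 6.1. The other 4 markers lay above the array medians. The part of the pigment epithelium in the Slc7a11 values was not tested.

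**Figure D2:**
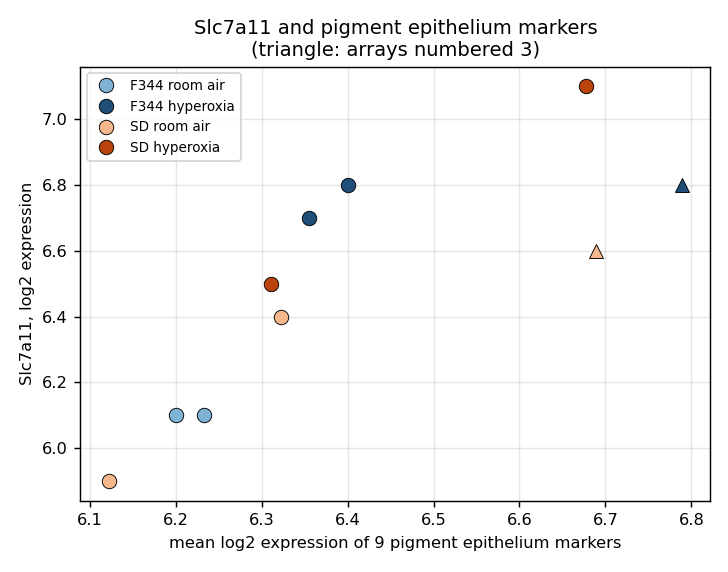
Log2 expression of Slc7a11 on each array against the mean log2 expression of 9 pigment epithelium markers; each point is a pool, coloured by group, with triangles for the arrays numbered 3. The pool with the lowest marker mean, 6.12, had the lowest Slc7a11 value, 5.9, and the highest Slc7a11 value, 7.1, came at a marker mean of 6.68. The highest marker means were those of the arrays numbered 3, 6.79 in F344 hyperoxia and 6.69 in SD room air. Their Slc7a11 values were 6.8 and 6.6.

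Gclm and Gclc encode the modifier and catalytic subunits of glutamate-cysteine ligase, the enzyme of the first step of glutathione synthesis. Gclm read 7.3, 7.5 and 7.6 in F344 hyperoxia against 7.3 and 7.1 in F344 room air, and 7.4 and 7.5 in SD hyperoxia against 7.5, 7.6 and 7.7 in SD room air. In room air every SD pool was above every F344 pool, whereas in hyperoxia the strains overlapped. Gclm was 0.40 higher in SD than in F344 in room air (SE 0.122, 95% CI 0.14 to 0.66, adjusted p = 0.236 by limma). The hyperoxia difference was 0.27 in F344 (SE 0.122, adjusted p = 0.921) and -0.15 in SD (SE 0.122, adjusted p = 0.829). Gclc, the catalytic subunit, had no difference between exposures larger than its error in either strain, at 0.02 in SD and -0.07 in F344 (SE 0.129 each). Its array values ran from 8.3 to 8.8, and the lowest was the SD room air array numbered 3. Neither subunit passed the test in any comparison.

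The Gclm promoter is shown as the member with the largest strain difference in room air, and as one of the promoters that hold an antioxidant response element match. The window is chr2:213031885-213032184 of GRCr8 on the plus strand, from RefSeq, over the same span around the start as for Mt1. Capitals mark the matches, and the antioxidant response element match GCTTAGTCA lies on the minus strand from 172 to 164 bases before the start.
Gclm: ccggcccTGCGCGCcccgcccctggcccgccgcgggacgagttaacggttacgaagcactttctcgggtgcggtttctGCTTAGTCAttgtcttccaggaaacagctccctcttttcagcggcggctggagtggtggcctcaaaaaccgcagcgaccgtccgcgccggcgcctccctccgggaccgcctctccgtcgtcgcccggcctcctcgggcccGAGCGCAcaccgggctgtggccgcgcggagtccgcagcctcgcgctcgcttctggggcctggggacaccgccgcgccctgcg
There are also 2 metal response element matches in this window. Among the 9 members with an entry in the promoter table (all but Hmox1), an antioxidant response element match was also found in Sod2 and in 1 of 2 entries for Txnrd1. Promoters of Slc7a11, Gclc, Srxn1, Nqo1 and Cat, and the other Txnrd1 entry, held neither motif in this window, which says nothing of sites elsewhere.

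**Figure D3:**
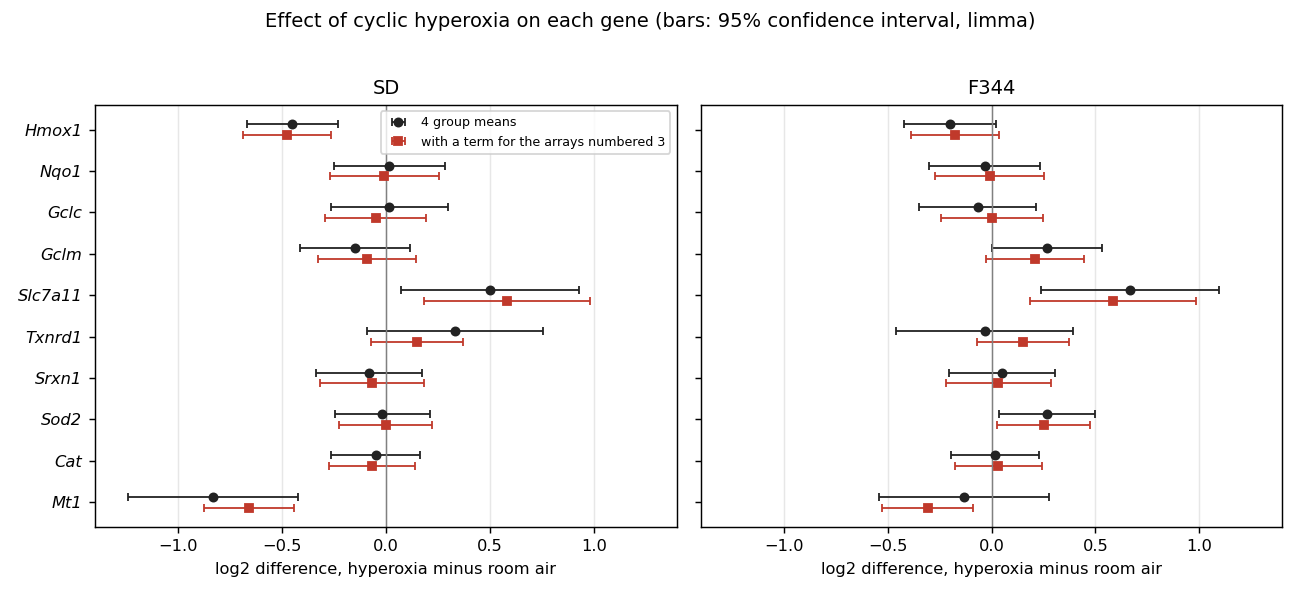
Log2 difference of hyperoxia minus room air for each gene in SD and in F344, with 95% confidence intervals from limma, from group means alone (circles) or with a term for the arrays numbered 3 (squares). Mt1 (-0.83) and Hmox1 (-0.45) lay lowest in SD, and Slc7a11 lay highest in both strains (0.50 and 0.67).

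Txnrd1 encodes the cytosolic thioredoxin reductase, a selenoprotein that restores thioredoxin with NADPH. It read 7.5 and 7.5 in SD hyperoxia, 7.3, 7.4 and 6.8 in SD room air, 7.3, 7.4 and 6.8 in F344 hyperoxia, and 7.3 and 7.1 in F344 room air. Both SD hyperoxia pools lay just above every other pool, and the lowest values, 6.8 in SD room air and 6.8 in F344 hyperoxia, were the arrays numbered 3. The difference in SD was 0.33 (SE 0.195, adjusted p = 0.815), and without both arrays numbered 3 it was 0.15 (SE 0.10). Txnrd1 was lower by -0.55 on those arrays in a fit with a term for them (SE 0.0923, adjusted p = 0.00205), the same size in each of the 2 groups. Srxn1 encodes sulfiredoxin, which repairs over-oxidised peroxiredoxins. Its values ranged from 4.6 to 5.0, and hyperoxia differed from room air by -0.08 in SD and by 0.05 in F344 (SE 0.117 each). In hyperoxia Srxn1 was lower in SD by -0.25 (SE 0.117, adjusted p = 0.755), with values that met at 4.7.

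Nqo1 encodes a quinone reductase and is among the most used readouts of NRF2 activity. Its values ranged only from 4.2 to 4.6 over all arrays, and the groups overlapped in every comparison. Hyperoxia differed from room air by 0.02 in SD (SE 0.123, 95% CI -0.25 to 0.29) and by -0.03 in F344 (SE 0.123, 95% CI -0.30 to 0.24). The probe set was dim, and these intervals bound what it could show.

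Sod2 encodes the manganese superoxide dismutase of mitochondria. It read 8.6, 8.6 and 8.8 in F344 hyperoxia against 8.4 and 8.4 in F344 room air, and in SD 8.4 and 8.5 in hyperoxia against 8.5, 8.5 and 8.4 in room air. The F344 groups did not overlap, at a difference of 0.27 (SE 0.106, 95% CI 0.04 to 0.50, adjusted p = 0.921), and in SD the difference was -0.02 (SE 0.106). The difference between those effects was -0.28 (SE 0.149, adjusted p = 0.662). Cat encodes catalase, which removes hydrogen peroxide. It read 8.1, 8.1 and 8.0 in F344 hyperoxia, 8.1 and 8.0 in F344 room air, 8.2 and 8.3 in SD hyperoxia and 8.3, 8.3 and 8.3 in SD room air. Every SD pool was above every F344 pool, by 0.25 in room air (SE 0.0982, 95% CI 0.04 to 0.46, adjusted p = 0.366) and by 0.18 in hyperoxia (SE 0.0982, adjusted p = 0.815). Exposure differed by -0.05 in SD and 0.02 in F344, each smaller than its SE of 0.0982.

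The members were also counted by whether the groups overlapped. For hyperoxia in SD, 1 member lay higher and 2 lower without overlap (14% of all genes in either direction), and in F344 2 higher and 1 lower (12.9%). Between strains in room air 3 lay higher in SD (10.8% of all genes in that direction, with 9.93% lower), namely Hmox1, Gclm and Cat, and in hyperoxia Cat and Txnrd1 lay higher and Mt1 and Sod2 lower (15.4% in either direction). These are counts over 10 genes in groups of 2 and 3 pools.

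The rest of the antioxidant system was read from 9 lists with 115 genes, of which 105 were measured. None passed in any of the 6 comparisons (limma), and the lowest adjusted p was 0.06, for Gpx7 between strains in room air. At an unadjusted p under 0.05, 9, 9, 16, 8, 9 and 9 of the 105 passed in the order of comparisons given above. The shares of all genes at that threshold were 4.68%, 4.91%, 11.4%, 6.71%, 6.98% and 3.62% in the same order. Nfe2l2, the NRF2 gene, read 7.1 and 7.1 in SD hyperoxia against 7.4, 7.5 and 7.8 in SD room air, and 7.3, 7.3 and 7.7 in F344 hyperoxia against 7.1 and 7.2 in F344 room air. In SD it was lower in hyperoxia by -0.47 (SE 0.149, adjusted p = 0.815), and the difference between the strains' effects was -0.75 (SE 0.210, unadjusted p = 0.0038, adjusted p = 0.651). The highest values in SD room air and in F344 hyperoxia, 7.8 and 7.7, were the arrays numbered 3. Without both, the Nfe2l2 difference in SD was -0.35 (SE 0.0871) and the difference between the effects was -0.50 (SE 0.123, adjusted p = 0.714).

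Of 26 listed glutathione genes, 24 were measured, and the median of the list lay on opposite sides of 0 in the strains. In SD the median hyperoxia difference was -0.12 with 17 of 24 below 0, and in F344 it was 0.12 with 18 of 24 above 0. In room air 20 of 24 lay above 0 for SD minus F344, with a median of 0.26. The median of the list for the difference of the effects was -0.30, with 20 of 24 below 0. With a term for the arrays numbered 3 these medians were -0.08, 0.03, 0.15 and -0.10, and without both arrays they were -0.10, 0.03, 0.20 and -0.10. All 4 medians thus lay closer to 0 once those arrays were modelled or left out. Gpx7, a glutathione peroxidase of the secretory pathway, was 0.62 higher in SD in room air (SE 0.127, adjusted p = 0.06 by limma), and had an adjusted p of 0.0333 with a term for the arrays numbered 3 and of 0.0808 without them. Gsto1, an omega-class glutathione transferase, was lower by -0.50 in SD hyperoxia (SE 0.191, adjusted p = 0.815), and Gsta4, which conjugates the lipid peroxide product 4-hydroxynonenal, by -0.60 (SE 0.310). Without the arrays numbered 3, the Gsta4 difference was -0.35 (SE 0.166). Glrx, glutaredoxin, was 0.63 higher in F344 hyperoxia (SE 0.246, adjusted p = 0.921), and 0.35 higher without those arrays (SE 0.142).

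In the thioredoxin and peroxiredoxin list, 14 of 16 genes were measured. The median strain difference in room air was 0.23 with 12 of 14 above 0, and the median hyperoxia difference was 0.14 in F344 and -0.03 in SD. With a term for the arrays numbered 3 these 3 medians were 0.18, 0.05 and -0.07, and without both arrays 0.18, 0.03 and -0.10. The SD median was above 0 under other scalings, at 0.0083 with quantile normalization repeated and 0.0167 with arrays centred on their median. Txnip, which binds and inhibits thioredoxin, was 0.57 higher in SD than in F344 in hyperoxia (SE 0.180, adjusted p = 0.407). Prdx5, a peroxiredoxin, differed by -0.38 in SD hyperoxia (SE 0.174), or -0.25 without the arrays numbered 3 (SE 0.109), and Msra, which repairs oxidised methionine, by 0.38 in F344 hyperoxia (SE 0.166).

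Among other NRF2 targets, 14 of 16 were measured. Ptgr1, a reductase of prostaglandins and reactive aldehydes, was 0.60 higher in SD in room air (SE 0.131, adjusted p = 0.0774), and Akr1b10, an aldo-keto reductase, was lower by -0.63 (SE 0.141, adjusted p = 0.0832). With the term for the arrays numbered 3 both passed, at adjusted p-values of 0.0482 and 0.0372, and without those arrays neither did, at 0.0808 and 0.128. Abcc4, an efflux transporter, was 0.53 higher in SD in hyperoxia (SE 0.112, adjusted p = 0.0779). Sod1, the cytosolic superoxide dismutase, differed by -0.48 in SD hyperoxia and by 0.30 in F344 hyperoxia (SE 0.269 each). Without the arrays numbered 3 these Sod1 differences were -0.20 and 0.05 (SE 0.125 each). Among 14 measured ATF4 targets of 14 listed, which answer amino acid shortage, Asns was 0.43 higher in SD hyperoxia (SE 0.110, adjusted p = 0.604), and Slc7a5 was lower by -0.32 in F344 hyperoxia (SE 0.107, adjusted p = 0.921). The metal, heme and iron, NADPH supply, NADPH oxidase and NRF2 regulator lists had medians for hyperoxia between -0.07 and 0.15 in both strains.

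**Figure D4:**
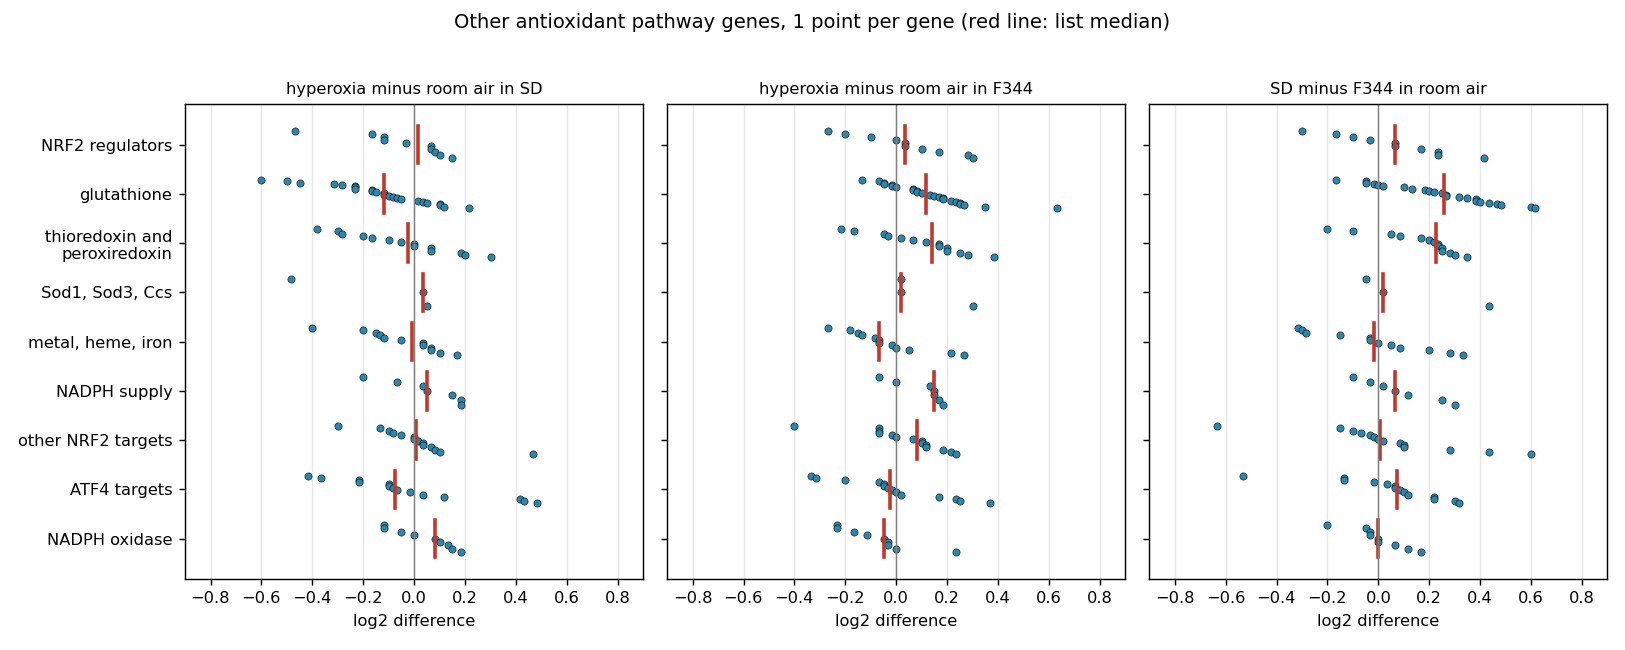
Log2 differences for the genes of the 9 antioxidant lists in the comparisons shown, each point a gene and each bar the median of its list. The glutathione list had a median of -0.12 in SD, with 7 of 24 genes above 0, and of 0.12 in F344, with 6 below 0. Without both arrays numbered 3 these medians were -0.10 and 0.03.

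Patterns across arrays were also set beside other genes, as a description over 10 arrays, which share the pair numbered 3. Over the same 7072 genes, Hmox1 was most like Gbe1 (r = 0.977), which encodes the glycogen branching enzyme, and Mif (0.942). Txnrd1 was most like Slc39a9 (0.977) and Cndp2 (0.974), and Gclm like Emd (0.964) and Acsl5 (0.963). Gclc was most like Ubxn2b (0.930), and Mt1 like Shfl (0.925) and Fxyd6 (0.896).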

How the data were processed

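RNA pools of rat retina were hybridised to Affymetrix whole-transcript arrays. Per the submitters' processing notes, values were summarised with RMA in Partek 6.4, and the deposited table holds log2 values to 1 decimal; the annotation step is not given in the sources used here. Of 27342 probe sets, 15097 had 1 gene symbol, 323 several and 11922 none.

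The members and lists were chosen with earlier results of these data known. From the deposited log2 values, limma 3.58.1 (R 4.3.3) fitted 1 mean per group over all 10 arrays, and p-values were adjusted by Benjamini and Hochberg's method across every probe set (passing: under 0.05). Alternatives included other scalings, array weights, a replicate block and leaving out arrays. Other genes were named where they had the smallest p of their list in a comparison, or an effect of at least 0.5 with groups apart. Likeness is Pearson's r over 10 arrays, among genes with a range of at least 0.5. Promoters came from RefSeq (GRCr8). P-values measure the spread between pools, and their precision is limited by the small number of arrays.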

Additional observations from a re-analysis of the deposited data

Results flagged for a closer look

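Gclm, the modifier subunit of glutamate-cysteine ligase, lay on opposite sides of its control in the strains: each F344 hyperoxia pool lay above the F344 room air mean and each SD hyperoxia pool below the SD room air mean. The exposures still overlapped in each strain, at 7.3 in F344 and at 7.5 in SD. The difference of the hyperoxia effects, SD minus F344, was -0.42 (SE 0.172), with an adjusted p of 0.651 by limma. The highest pools of F344 hyperoxia and SD room air were the arrays numbered 3. Without both, the difference of the effects was -0.30 (SE 0.159).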

How the results depend on the processing

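Each comparison was recomputed under 21 alternatives, not all of which apply to each. Members called numbered 0 in 115 of 124 recomputed counts and 1 in 9, and the 1 was always Mt1. For SD hyperoxia it was 1 with a term for the arrays numbered 3. For the strains in hyperoxia it was 1 with arrays centred on their median, array weights, a replicate block, a term for the arrays numbered 3 and without both of those arrays, and ranged from 0 to 1 when single arrays were left out (1 without SD room air replicate 3). For the average effect it was 1 with a replicate block and with the term. The replicate numbers were taken not to pair the samples: 4 of 13 same-numbered pairs correlated over 0.1 (from -0.0733 to 0.644). These included all 3 pairs of F344 hyperoxia with SD room air (0.314, 0.397 and 0.644). Correlations were taken on deviations from group means, so these 3 values depend on one another. No direct comparison sets these 2 groups against each other. Both enter the difference of the hyperoxia effects with the same sign, so a shift shared by their arrays adds up there. With the replicate block the Mt1 adjusted p was 0.00807 for the strains in hyperoxia and 0.0235 for the average. Of the 1222 recomputed member effects, 9 passed that had not and 0 reversed, reading a direction only where an effect exceeded its SE. Over all genes, calls went from 7 to between 0 and 19 in SD, from 1 to between 0 and 2 in F344, from 79 to between 10 and 216 for strains in room air, from 68 to between 12 and 157 in hyperoxia, and from 9 to between 1 and 30 for the average. Fits of only the groups compared do not apply to the difference or the average, and a filter on dim probe sets removed Hmox1, Nqo1 and Srxn1. The number of arrays limits the precision.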
